A study of Mus musculus with 2 samples.

Results

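Heat shock proteins and chaperones were described in splenic natural killer (NK) cells of mice with and without a Cre that deletes the prostaglandin receptor gene Ptger3 in NK cells. A list of 46 gene symbols was matched by symbol to the 31053 genes of the deposited files, and 45 were found. Cct6a was not found, so no counts are given for it, and only its promoter window was searched. The list holds 24 cytosolic genes (8 heat shock proteins, 6 J-domain proteins and 10 co-chaperones), the heat shock factor gene Hsf1, 8 subunit genes of the cytosolic chaperonin CCT, 4 mitochondrial chaperones and 9 chaperones or folding enzymes of the endoplasmic reticulum (ER).

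Chaperones bind unfolded or newly made proteins and help them fold, and they differ by compartment. In the cytosol, HSP70 proteins such as Hspa8 work with J-domain partners (the Dnaj genes), with nucleotide exchange factors such as Hsph1, and pass some clients to HSP90 through adaptors such as Stip1. CCT is a ring that folds actin and tubulin, Hspd1 and Hspe1 form the chaperonin of mitochondria, and Hspa5, Hsp90b1, calreticulin (Calr) and calnexin (Canx) serve proteins entering the secretory route. Cytosolic chaperone genes are known targets of the heat shock factor HSF1, whereas many ER chaperone genes answer to the unfolded protein response.

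Both groups were C57BL/6 mice with floxed Ptger3 alleles, which encode the receptor EP3. The control is labelled EP3F/F and the knockout NKp46CreEP3F/F, with Cre under the gene of the NK receptor NKp46 (Ncr1). For each genotype, CD27+CD11b+ NK cells from the spleens of 2 mice were sorted and pooled, and gave 1 droplet library of 3′ tags. With 1 library per genotype no test can be made, the pooled mice cannot be told apart, and every interval below is a 95% interval for counting error only. The age of the mice is not given in the sources used here.

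Transcripts were counted by unique molecular identifiers (UMIs). There were 69853026 UMIs over 11785 barcodes in the control and 42795121 over 10615 in the knockout. After filtering, 10928 and 10023 cells were kept, with median depths of 5816.5 and 3832 UMIs, and 33 barcode sequences occurred in both libraries. A gate on NK markers held 10183 control and 9024 knockout cells, with 64200484 and 37884811 UMIs. In these cells Ptger3 was counted 16 times in the control library and 0 times in the knockout library, where 3 UMIs would be 0.0792 counts per 1000000 UMIs (CPM). The control level was 3.15 times that floor, and the counting interval of the log2 ratio of knockout over control ended at -1.19. A 3′ tag can lie outside the deleted part and then checks nothing. The sort markers Cd27 (135 against 159 CPM) and Itgam, which encodes CD11b (155 against 94.0 CPM), were both present, and Ncr1 stood at 789 and 821 CPM. Summed markers of other cells in the NK gate ranged in the control from 2.43 CPM (neutrophil) to 112 CPM (B cell), and in the knockout from 9.34 CPM (macrophage) to 111 CPM (erythroid). The erythroid sum was 23.7 CPM in the control and the T cell sum was 22.4 against 47.4 CPM. All 6 T markers were detected in both libraries, but unevenly. Cd3g stood at 9.16 against 30.2 CPM, while Cd3e, Cd5 and Cd6 had 2, 5 and 4 control and 21, 2 and 2 knockout UMIs. In the B cell sum Ighm stood at 111 against 82.8 CPM, and the next highest, Cd79b, at 0.483 against 1.14 CPM. The dendritic markers Flt3, Siglech and Xcr1 were at 0 in control NK cells, and Xcr1 was also at 0 in the knockout. The cold-inducible genes Cirbp (60.0 to 303 CPM, log2 ratio 2.34) and Rbm3 (0.49) were higher in the knockout library, and the immediate early genes Fos (-1.14), Fosb (-1.38) and Klf6 (-0.90) were lower while Ier2 was higher (0.49). Their part in the chaperone differences was not tested.

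Promoter windows are shown first because each of the 2 pathways named above has a known DNA motif. RefSeq windows of the GRCm38.p6 build, running from 250 bases before to 50 bases after a start site, were at hand for 38 of the 46 listed symbols. Both strands were searched for a heat shock element (GAA, any 2 bases, TTC, any 2 bases, GAA) and for the ER stress element (CCAAT, any 9 bases, CCACG). No member held both. The heat shock element lay in a window of 179 of 27025 genes (0.662%) and of 5 of 38 members (13.2%), namely Hsph1, Chordc1, Dnajb6, Hspd1 and Hspe1. Among the members with a window but no match were Hspa1a, Hspa1b, Dnajb1, Stip1, Dnaja1 and Dnajb4. Hsp90aa1, Hsp90ab1 and Hspa8 had no window and were not searched. In the sequences below, capitals mark the fixed letters of the motif on either strand, and each is written 5′ to 3′ along the gene's own strand.
Hsph1, chr5:149636285-149636303, minus strand: agaTTCtgGAAagTTCtcc
Chordc1, chr9:18292260-18292288, plus strand: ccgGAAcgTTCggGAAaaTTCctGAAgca
Dnajb6, chr5:29735832-29735884, plus strand: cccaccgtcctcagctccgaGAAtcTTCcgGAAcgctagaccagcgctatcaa
Hspd1, chr1:55088039-55088096, minus strand: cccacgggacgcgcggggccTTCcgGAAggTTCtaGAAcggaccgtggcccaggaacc
Hspe1, chr1:55088039-55088096, plus strand: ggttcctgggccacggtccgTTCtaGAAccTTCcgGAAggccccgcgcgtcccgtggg
The Hspd1 and Hspe1 lines are the same bases read on opposite strands, since the genes lie head to head and share this stretch. Chordc1 holds 3 overlapping matches, starting at positions -4, 1 and 6 from its start site. The Hsph1 match lies after its start sites, at positions 15 and 36 of its 2 windows.

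The ER stress element lay in a window of 37 of 27025 genes (0.137%) and of 6 of 38 members (15.8%), all of them ER genes: Hspa5, Hsp90b1, Calr, Canx, Dnajc3 and Pdia6. It lay 65 bases before the start site of Hspa5. Of these 6, the first 3 printed were lower in the knockout library (-1.04, -0.94 and -0.63). Calr (-0.28), Dnajc3 (-0.19, stretch not printed) and Pdia6 (0.09) were within the size of 0.32 used below.
Hspa5, chr2:34772005-34772063, plus strand: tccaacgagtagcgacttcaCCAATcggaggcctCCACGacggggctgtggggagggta
Hsp90b1, chr10:86705513-86705676, minus strand: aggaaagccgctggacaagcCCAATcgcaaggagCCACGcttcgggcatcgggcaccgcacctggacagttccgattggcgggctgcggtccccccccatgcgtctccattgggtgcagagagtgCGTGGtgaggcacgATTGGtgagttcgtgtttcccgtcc
Canx, chr11:50325780-50325838, minus strand: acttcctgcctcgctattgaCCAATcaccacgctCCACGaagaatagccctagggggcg
Calr, chr8:84847055-84847113, minus strand: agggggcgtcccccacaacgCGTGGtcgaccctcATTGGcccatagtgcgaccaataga
Pdia6, chr12:17266471-17266529, plus strand: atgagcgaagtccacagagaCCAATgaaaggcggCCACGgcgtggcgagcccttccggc
A match is a run of letters and not a bound site, and a window without one says nothing of the factor. Hsf1 binding was not measured. Both motifs occurred in members with low and with near-equal ratios: of the heat shock element genes, Dnajb6 had a log2 ratio of -0.06 and Hsph1 one of -3.71.

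In NK cells the chaperone genes were lower in the knockout library or near the control level, and none was higher. Of the 45 matched genes, 40 had a mean of at least 10 CPM over the 2 libraries and are called measured. Lower and higher mean a log2 ratio of knockout over control of at least 0.32 in size, which is 1.25-fold. By that rule 23 members were lower, 0 higher and 17 between. Among all 7338 measured genes 29.2% were lower and 14.9% higher. The members' median log2 ratio was -0.48, against -0.07 over all measured genes. Together the members took 0.962% of NK UMIs in the control library and 0.532% in the knockout library. No p or tool-based count can be given for the 0 higher members, since there is 1 library per group.

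**Figure D1:**
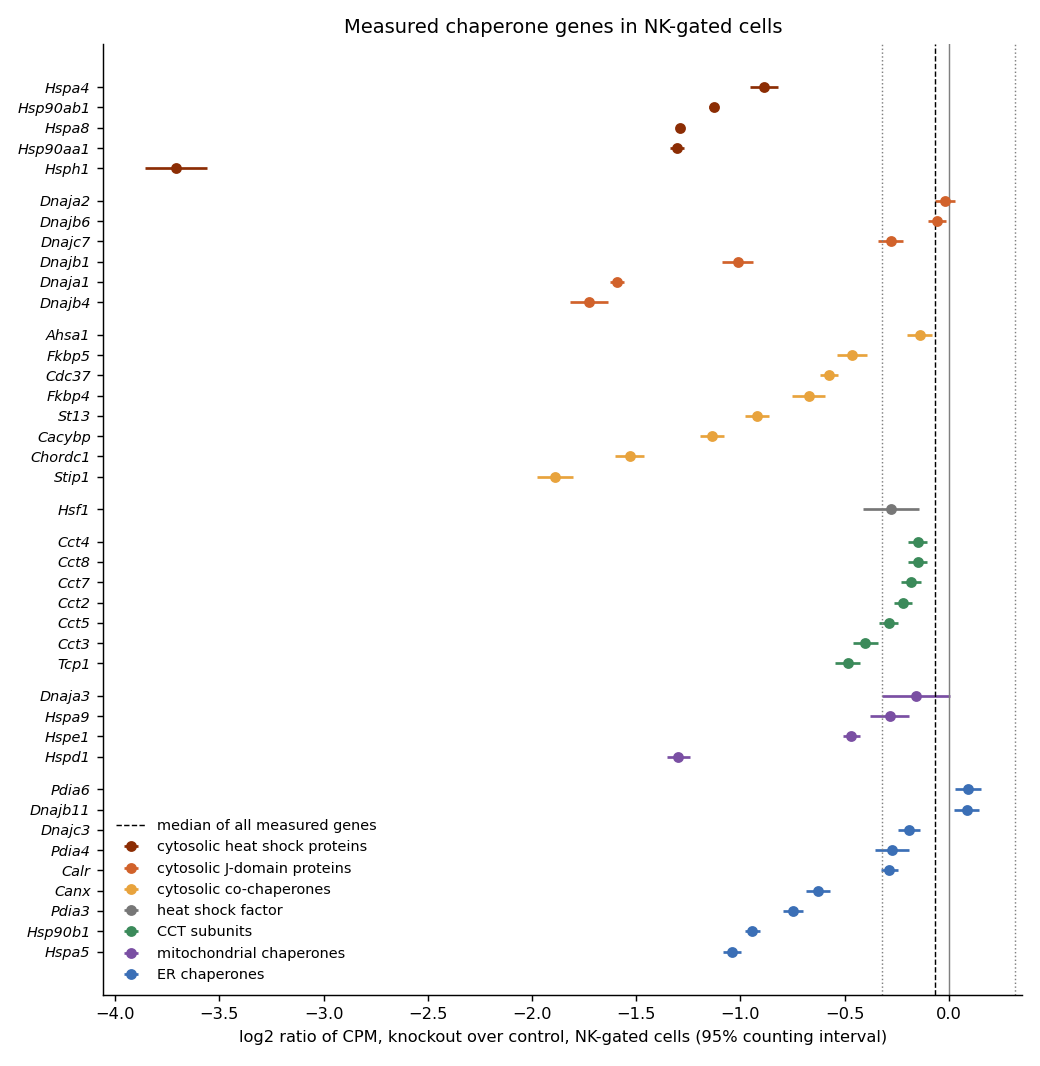
Log2 ratio of CPM, knockout over control, for each of the 40 measured chaperone genes in NK-gated cells, grouped by list, with 95% counting intervals as bars. The solid line marks equal levels, the dotted lines the size of 0.32 and the dashed line the median of all measured genes at -0.07. Hsph1 lies farthest to the left at -3.71, and the 7 CCT subunits lie between -0.48 and -0.15.

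The 5 measured cytosolic heat shock proteins were all lower, and their summed level was 3847 CPM in the control library and 1601 CPM in the knockout library (log2 -1.27, -1.28 to -1.25). Hsph1 (ENSMUSG00000029657), an HSP110 protein that resets HSP70, was counted 8653 times in the control library and 391 times in the knockout library, or 134.8 against 10.3 CPM. This 13.1-fold difference (log2 -3.71, -3.86 to -3.56) was the lowest ratio of all 7338 measured genes. With each cell thinned to 2000 UMIs, an Hsph1 UMI was found in 21.6% of the control and 1.77% of the knockout NK cells, against 46.8% and 4.0% before depths were matched. No cell type here is known to lack chaperones and so gives a background for such shares. Hspa8, the constitutive cytosolic HSP70, stood at 1706 CPM in the control library and 699 CPM in the knockout library (log2 -1.29). Of the HSP90 pair, Hsp90aa1 stood at 570 against 231 CPM (-1.31) and Hsp90ab1 at 1307 against 598 CPM (-1.13). Hspa4, a second HSP110-type gene, showed the smallest difference of the 5, with 115 against 62.0 CPM (-0.89).

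The stress-inducible HSP70 genes Hspa1a and Hspa1b were below the level needed to be called measured. Hspa1a had 357 UMIs in the control library and 7 in the knockout library, and Hspa1b had 565 and 28. The log2 ratios were -4.91 (-6.24 to -3.85) and -3.57 (-4.18 to -3.03). These genes are near-identical copies on the same chromosome, so the split of reads between them is uncertain and the pair is best read together. Hspb1, a small heat shock protein, had 5 and 1 UMIs, which allows no comparison.

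The J-domain proteins, which deliver clients to HSP70, were unequal. Dnajb4 stood at 101 against 30.5 CPM (-1.73), Dnaja1 at 690 against 229 CPM (-1.59) and Dnajb1, the main partner of inducible HSP70, at 101 against 49.97 CPM (-1.01). Dnajc7 (-0.28), Dnajb6 (-0.06) and Dnaja2 (-0.02) were between, and Dnajb6 and Dnaja2 turned to slightly above 0 when libraries were scaled by the median of ratios (0.01 and 0.05). As a sum, the 6 genes stood at 1323 against 713 CPM (-0.89).

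Of the 8 measured co-chaperones, 7 were lower. Stip1, the adaptor between HSP70 and HSP90, stood at 120 against 32.4 CPM (-1.89) and ranked 10 of 7338 from the lowest. Chordc1, an HSP90 partner, stood at 154 against 53.2 CPM (-1.53), and Cacybp at 183 against 83.3 CPM (-1.14). St13 (-0.92), which binds HSP70, and the immunophilin Fkbp4 (-0.67) followed. Cdc37, which brings kinases to HSP90, stood at 231 against 155 CPM (-0.57), and the immunophilin Fkbp5 was at -0.46. Ahsa1, an activator of HSP90, was near the control level (93.5 against 84.9 CPM, -0.14). Bag3 (483 against 163 UMIs, -0.81) and Ptges3l (30 against 27 UMIs) were not measured by the rule. Over the 3 cytosolic lists, 15 of 19 measured genes were lower with a median of -1.01, and the summed level was 6269 against 2914 CPM. Hsf1 itself was at 21.7 against 17.9 CPM (-0.28, -0.41 to -0.14), within the size used here.

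The CCT subunits lay close together, all below 0. Tcp1 (-0.48) and Cct3 (-0.40) passed the size, while Cct5 (-0.29), Cct2 (-0.22), Cct7 (-0.18), Cct8 (-0.15) and Cct4 (-0.15) were between. Their sum was 1097 CPM in the control library and 923 CPM in the knockout library (-0.25, -0.27 to -0.23). The median of the 7 subunits was -0.22 beside -0.07 for all measured genes.

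The mitochondrial chaperones were unequal. Hspd1, the HSP60 subunit of the mitochondrial chaperonin, stood at 211 against 85.8 CPM (log2 -1.30, -1.35 to -1.24). Its partner Hspe1, the head-to-head neighbour whose shared stretch is printed above, stood at 263 against 190 CPM (-0.47, -0.51 to -0.43). The mitochondrial HSP70 Hspa9 (-0.28) and its J-domain partner Dnaja3 (-0.16, -0.32 to 0.01) were between. The intervals of Hspd1 and Hspe1 do not overlap, although they hold no error between animals.

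The ER genes fell into a lower and a near-equal set. Hspa5 (BiP), the ER HSP70, stood at 329 against 160 CPM (-1.04), Hsp90b1 (GRP94) at 425 against 221 CPM (-0.94), the disulfide isomerase Pdia3 at 208 against 124 CPM (-0.75) and Canx at 138 against 89.1 CPM (-0.63). Calr (-0.28), Pdia4 (-0.27) and Dnajc3 (-0.19) were between. Dnajb11, the J-domain partner of BiP, and Pdia6 were slightly above the control level, at 0.09 each. Summed ER levels were 1702 CPM in the control library and 1139 CPM in the knockout library (-0.58, -0.60 to -0.56). The genes carrying the ER stress element spanned this whole range, from Hspa5 to Pdia6.

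Other folding genes outside the list were compared as a reference for the compartments. Of 111 such genes (further cytosolic chaperones, prefoldin and tubulin cofactors, mitochondrial and ER folding genes), 95 were measured, 26 lower and 10 higher, with a median of -0.10. Their summed level was 8549 CPM in the control library and 8414 CPM in the knockout library (-0.02). By group, 14 of 33 ER genes (median -0.24), 10 of 37 cytosolic, 2 of 13 prefoldin or tubulin cofactor and 0 of 12 mitochondrial genes were lower, beside 29.2% of all genes. Of the ER members above, 4 of 9 were lower. The lowest were Hspa4l (-1.36), an HSP110-type gene, Ahsa2 (-1.29), related to Ahsa1, and the J-domain gene Dnaja4 (-1.05). The highest were the tubulin cofactor Tbcc (0.83), Dnajc17 (0.79) and the mitochondrial protease subunit Clpp (0.59).

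Ratios over all genes went with exon length, with a median of 0.21 in the shortest and -0.44 in the longest of 8 length classes of measured genes. Subtracting the median of the 300 measured genes nearest in length left the members' median at -0.42, with 24 lower and 0 higher. Only the members and the other folding genes were adjusted, so no share of all genes stands beside these counts. Hsph1 was then at -3.41, Stip1 at -2.12 and Hspd1 at -1.44. Fkbp5 (-0.12), Cdc37 (-0.27) and Cct3 (-0.23) no longer passed the size, while Cct5 (-0.43), Calr (-0.40), Pdia4 (-0.40) and Cct2 (-0.38) now did.

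Cells of other types were also in the sorted libraries, and they are compared because the Cre is driven from an NK receptor gene. Cells gated by marker UMIs, with at most 1 UMI over 8 NK markers, were few: 12 control and 32 knockout T cells, 34 and 126 macrophages, and 14 and 23 dendritic cells. NK-derived RNA in them was small, with Gzma at 0.644% to 2.72% of the NK level. The macrophage gate was shallow, with medians of 1175.5 and 1418.5 UMIs per cell. With these 3 types pooled and genes of at least 10 UMIs used, 21 of 38 members were lower and 5 higher in the knockout library. Of all 5899 such genes 37.4% were lower and 31.9% higher.

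Cytosolic members were lower in the knockout library in all 3 types. In T cells their sum was 8764 CPM in the control library and 3602 CPM in the knockout library (log2 -1.28, -1.45 to -1.12). In macrophages it was 5763 against 3437 CPM (-0.75, -0.95 to -0.53), and in dendritic cells 5845 against 2903 CPM (-1.01, -1.31 to -0.71). The NK value of -1.11 lies between these. Hsp90ab1 was lower in each, with log2 ratios of -1.39 in T cells, -0.77 in macrophages and -1.21 in dendritic cells, and Hspa8 had -1.14, -0.79 and -1.10. Hsph1 had 12 UMIs in control and 4 in knockout T cells (-2.71, -4.80 to -0.99), with 6 of the 12 in 1 cell (91.5 CPM without it, against 165 CPM), and 3 UMIs in macrophages of each library (-2.36, -5.26 to 0.54). Genotype and library preparation cannot be told apart with 1 library each.

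In T cells 28 of 36 members were lower and 2 higher, where 42.9% of 2917 genes were lower and 28.5% higher. All compartments but the mitochondrial one had a summed interval below 0 in T cells: ER -1.15 (-1.505 to -0.79), CCT -0.50 (-0.85 to -0.15) and mitochondrial -0.37 (-0.83 to 0.11). Hspa5 stood at 481 against 145 CPM (-1.73, -2.56 to -0.93) and Hsp90b1 at 302 against 81.9 CPM (-1.88, -3.00 to -0.83). Hspe1 was near the control level there (412 against 453 CPM, 0.14).

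In macrophages the summed ER members had the opposite sign to NK cells, a difference that was not tested. There 15 of 34 members were lower and 10 higher, beside 38.8% lower and 31.2% higher of 3462 genes, so the counts are close to the background. ER members summed to 2273 CPM in the control library and 3011 CPM in the knockout library (0.41, 0.10 to 0.73). Mitochondrial members were also above 0, at 597 against 807 CPM (0.43, -0.16 to 1.09), with an interval that includes 0. Their sum was at -0.71 in NK cells. Calr had 15 UMIs in 12 of 34 control cells and 141 UMIs in 82 of 126 knockout cells, or 344 against 632 CPM (0.88, 0.10 to 1.75). Pdia6 was at 161 against 385 CPM (1.26, 0.16 to 2.62), while Hsp90b1 (-0.13) and Canx (-0.10) had intervals that include 0. The makeup of the gate moved too: summed macrophage markers were 18851 against 22204 CPM, dendritic markers 6750 against 13542 CPM, and erythroid markers 138 against 686 CPM. Their part in the ER value was not tested. Without the limit on NK UMIs, which gave 138 and 306 cells that also carried NK markers, the ER ratio was near 0 (-0.06, -0.16 to 0.04).

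**Figure D2:**
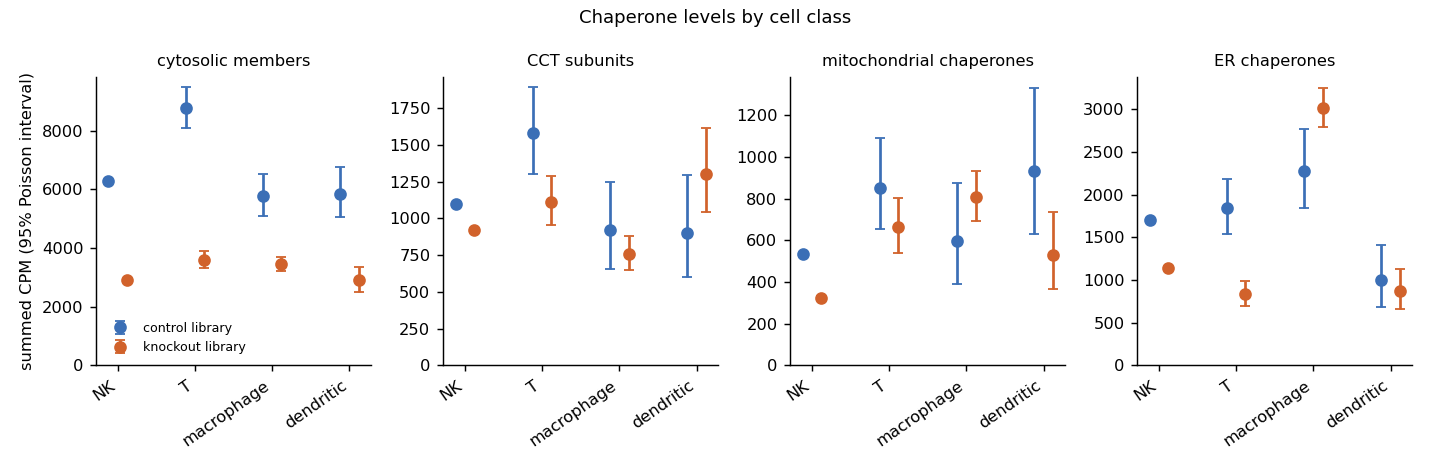
Summed CPM of each compartment (vertical axis, with 95% Poisson intervals as bars) in NK, T, macrophage and dendritic cells of the control (blue) and knockout (orange) library. Cytosolic members are lower in the knockout library in all 4 classes, while ER members are higher in knockout macrophages (3011 CPM) than in control macrophages (2273 CPM).

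Within a library, the types also differed in chaperone makeup. Macrophages held fewer J-domain transcripts than NK cells, with log2 ratios of -1.04 (-1.63 to -0.51) in the control and -0.71 (-1.02 to -0.43) in the knockout library. Among them Dnaja1 was at 230 CPM in control macrophages against 690 CPM in control NK cells. T cells held more cytosolic chaperone RNA than NK cells in both libraries (0.48, 0.37 to 0.60, and 0.31, 0.18 to 0.42), with Hsp90ab1 at 0.94 and 0.68. Macrophages of the knockout library stood above its NK cells in ER (1.40, 1.29 to 1.51) and mitochondrial members (1.31, 1.09 to 1.52). In the control these differences were smaller, at 0.42 (0.12 to 0.70) and 0.17 (-0.45 to 0.72). Dendritic cells held less ER chaperone RNA than NK cells, at -0.77 (-1.32 to -0.28) and -0.39 (-0.79 to -0.01). Hspe1 was higher in dendritic cells than in NK cells of the same library (1.67 and 1.19).

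NK cells were next split by state at a common depth of 2000 UMIs. By the share of mature among mature and immature marker UMIs, the cells of each library were cut at their own terciles into a least mature bin (3408 control and 2986 knockout cells), an intermediate bin (3357 and 2872) and a most mature bin (2984 and 2818). The bins are ranges of a score and not types, with boundaries at 0.286 and 0.6 in the control and at 0.143 and 0.429 in the knockout. In the control 1525 cells lay within 0.05 of the lower boundary and 725 of the upper one, and in the knockout 1127 and 561. Chemokine-high cells (119 and 35), interferon-response cells (32 and 42) and dividing cells (36 and 15) were set apart, and 91 and 51 cells had no maturation marker UMI.

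Chaperone levels were close to each other across the maturation bins. Cytosolic members stood at 6168, 6202 and 6359 CPM from the least to the most mature bin of the control, and at 2899, 2866 and 2927 CPM in the knockout library. The most over the least mature bin gave a log2 ratio of 0.04 (0.03 to 0.06) in the control and 0.01 (-0.01 to 0.03) in the knockout. The knockout-over-control ratio of the cytosolic sum was -1.09, -1.11 and -1.12 in the 3 bins, that of Hsph1 -3.71, -3.73 and -3.76, and that of Hspa5 -1.08, -1.06 and -1.01. Each bin showed a ratio close to that of all NK cells. The inducible pair did go with maturation in the control. Hspa1a stood at 2.94, 5.36 and 8.33 CPM and Hspa1b at 5.04, 9.65 and 11.2 CPM from the least to the most mature bin, log2 ratios of the most over the least mature of 1.5 (1.08 to 1.94) and 1.16 (0.82 to 1.5).

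Cells with high Ccl3 and Ccl4 held more chaperone RNA than intermediate cells of the same library. In the control the cytosolic sum was 8120 against 6202 CPM (0.39, 0.35 to 0.42), and in the knockout 4820 against 2866 CPM (0.75, 0.65 to 0.84). Hspa5 was 594 against 321 CPM in the control (0.89, 0.76 to 1.02) and 372 against 154 CPM in the knockout (1.28, 0.91 to 1.62). In the knockout, Hsp90ab1 (1.30), Hsp90aa1 (1.16), Hspd1 (1.16), Hspe1 (1.16) and Calr (1.09) were also above the intermediate cells. Between libraries, chemokine-high cells differed by -0.75 (-0.85 to -0.65) for cytosolic members, by -0.26 (-0.43 to -0.09) for ER, by 0.06 (-0.14 to 0.26) for CCT and by -0.10 (-0.39 to 0.18) for mitochondrial members. By single genes 19 of 40 members were lower and 7 higher, beside 39.5% and 26.1% of 6755 genes. The 7 were Dnaja3, Cct8, Pdia6, Calr, Pdia4, Fkbp5 and Hspe1, and their intervals all include 0. Hsph1 was counted 136 times in 119 such control cells and 1 time in 35 knockout cells.

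Interferon-response cells stood above intermediate cells in cytosolic members in both libraries (0.48, 0.41 to 0.54, and 0.37, 0.25 to 0.48). In the knockout, Hspa5 reached 579 CPM in these cells against 154 CPM in intermediate cells (1.91, 1.61 to 2.20). Its 102 UMIs were spread over 37 of 42 cells, with at most 10 in a cell. In the control Hspa5 was 483 CPM there (0.59, 0.29 to 0.88), and the knockout-over-control ratio in this state had an interval that includes 0 (0.26, -0.15 to 0.67). By single genes 28 of 38 members were lower and 3 higher between the libraries, beside 36.5% and 27.2% of 4559 genes. Control interferon-response cells also held Hspa1b at 87.0 CPM, with 18 UMIs in 6 of 32 cells and 6 of them in 1 cell (59.0 CPM without it).

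Dividing cells were few and deep, with medians of 10515.5 and 11421 UMIs. In the control they held less Hsph1 (58.1 against 133 CPM, -1.19, -1.87 to -0.59), Dnaja1 (-0.78, -1.02 to -0.55) and Dnajb4 (-1.21, -1.99 to -0.52) than intermediate cells, and more Hsp90aa1 (0.52, 0.35 to 0.69) and Hsp90b1 (0.61, 0.42 to 0.79). In the knockout they held more Hspa8 (1.04, 0.84 to 1.23), Stip1 (1.45, 0.57 to 2.22) and Hsp90b1 (0.998, 0.64 to 1.34). These values rest on 15 cells, and Stip1 on 14 UMIs. For Hspa8, 1 cell held 47 of 225 UMIs (1189 CPM without it, against 1392 CPM). For Hsp90b1, 1 cell held 21 of 71 UMIs (334 CPM without it, against 439 CPM). The difference between libraries was smaller in this state, at -0.53 (-0.66 to -0.41) for the cytosolic sum. By single genes 24 of 38 members were lower and 2 higher, beside 39.0% and 25.1% of 5406 genes. Whether a state alters the difference between genotypes cannot be tested with 1 library each.

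**Figure D3:**
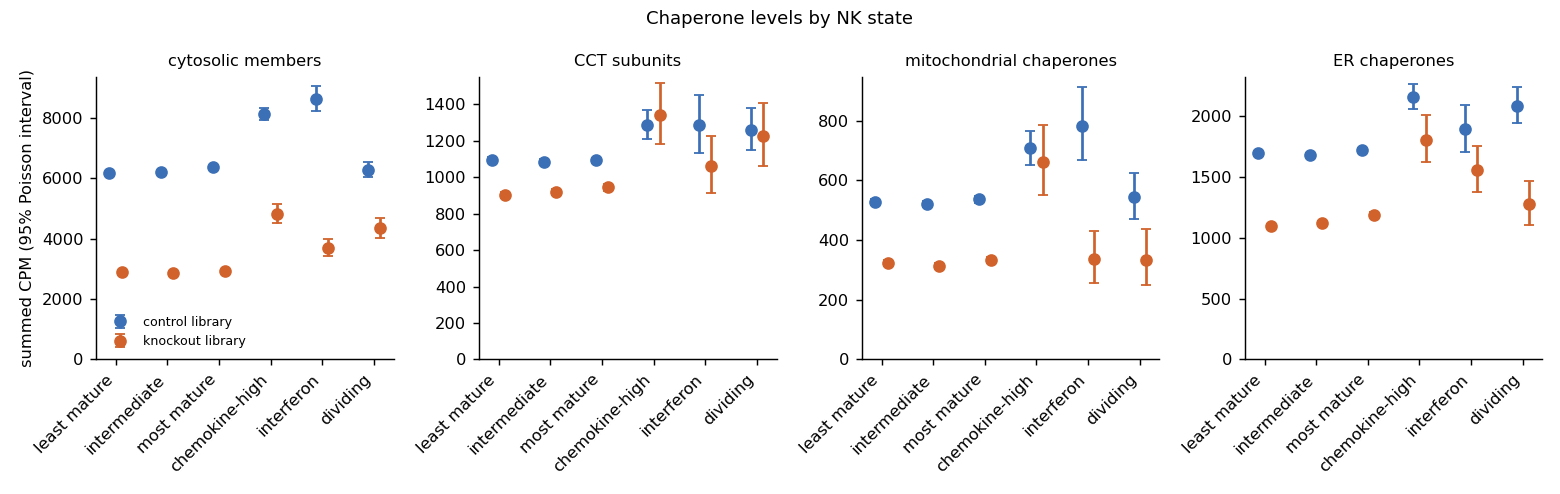
Summed CPM of each compartment (vertical axis, with 95% Poisson intervals as bars) by NK state in the control (blue) and knockout (orange) library. The 3 maturation bins lie level within a library, at 6168 to 6359 CPM and 2866 to 2927 CPM for cytosolic members, and chemokine-high cells lie above them.

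Cell by cell, nearly the whole NK population was shifted in cytosolic members, while the other compartments overlapped more. With 10027 control and 8819 knockout NK cells each thinned to 2000 UMIs (156 and 205 shallower cells were left out), a control cell held a median of 12 UMIs of cytosolic members, with 5 and 23 at the 5th and 95th percentiles. A knockout cell held a median of 5, with 2 and 10. Of the knockout cells 1.39% lay above the control median, beside 42.6% of the control cells, since counts tie at the median. At or below the knockout median lay 6.67% of control cells. ER members had medians of 3 and 2 UMIs, and 20.2% of knockout and 40.7% of control cells lay above the control median. CCT had a median of 2 in both, with 27.6% of knockout and 35.8% of control cells above it. Mitochondrial members had medians of 1 in the control and 0 in the knockout. Above the control median lay 13.1% of knockout and 27.0% of control cells.

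The spread between cells was also wider in the control. The variance over the mean of cytosolic UMIs, which is 1 for counting noise alone, was 2.78 in the control library and 1.26 in the knockout library. The squared coefficient of variation left after taking off counting noise was 0.143 against 0.0468 for cytosolic members and 0.370 against 0.147 for mitochondrial members. For ER members it was 0.157 against 0.102, and for CCT 0.0488 against 0.0238. Each of the 4 groups varied more among control cells. The cold-inducible genes did so too, with 0.0524 against 0.0239, and the immediate early genes did not, with 0.214 against 0.231. Cells of the 2 pooled mice cannot be told apart, so a difference between the mice of a pool is part of this spread.

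**Figure D4:**
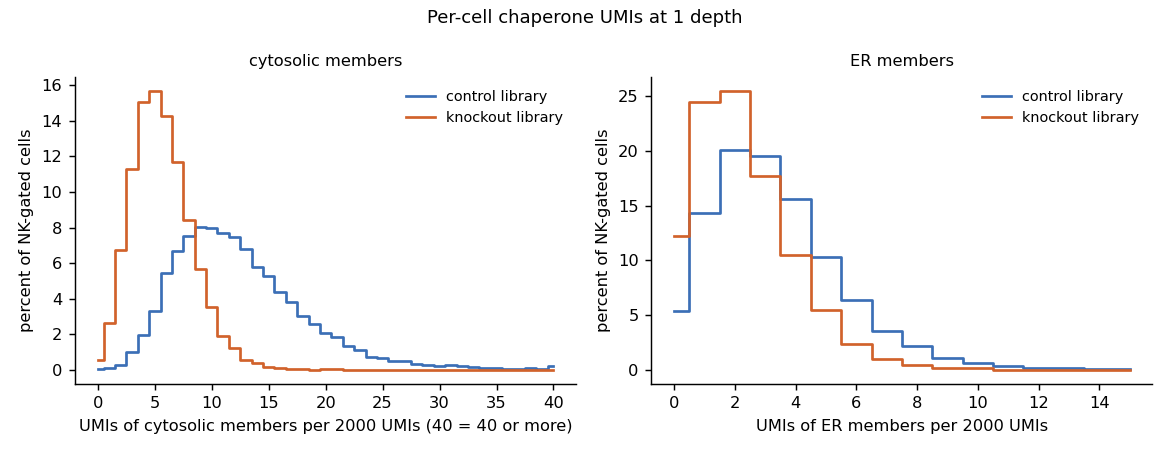
Percent of NK-gated cells (vertical axis) by the number of cytosolic (left) and ER (right) member UMIs in 2000 UMIs per cell, for the control (blue) and knockout (orange) library. The cytosolic curve of the knockout peaks near 5 UMIs and is narrow, while that of the control has its median at 12 and a long tail to the right.

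Compartments tended to go up and down together across control cells. Pearson's r across the 10027 control cells was 0.327 between cytosolic and mitochondrial sums, 0.247 between cytosolic and ER sums and 0.197 between cytosolic and CCT sums. Across the 8819 knockout cells the same values were 0.067, 0.025 and 0.079. Spearman's rank correlations were lower, at 0.222, 0.191 and 0.143 in the control and 0.051, 0.008 and 0.054 in the knockout. These are descriptions of cells that share a library and a set depth. Lower counts weaken r, so the covariance over the product of the means, which counting noise does not shrink, was taken as well. It was 0.178 against 0.0419 for cytosolic with mitochondrial, 0.0786 against 0.0088 for cytosolic with ER and 0.0668 against 0.0281 for cytosolic with CCT. The cytosolic sum was almost unrelated to the cold-inducible genes (r of 0.006 and 0.026) and the immediate early genes (0.018 and -0.051) within either library.

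Pairs of single genes showed the same. The highest r in control cells was 0.281 between Hsp90ab1 and Hspa8, followed by 0.280 between Hsp90aa1 and Hsp90ab1 and 0.225 between Hsp90aa1 and Hspa8. In knockout cells these were 0.077, 0.033 and 0.016. Hsph1 correlated with Hsp90ab1 at 0.192 in the control library and 0.032 in the knockout library. Across compartments, Hsp90ab1 reached 0.222 with Hspe1 and 0.152 with Hspa5 in the control. Over all 780 pairs of measured members the median r was 0.017 in the control and 0.004 in the knockout. An r over 0.1 occurred in 4.74% of control pairs and 0% of knockout pairs, and in 0.013% of all gene pairs in each library. Among genes of at least 100 CPM, which are nearer to the members in level, it occurred in 0.436% of control and 0.448% of knockout pairs, and among the 18 members of that level in 9.80% and 0% of 153 pairs. Among ER genes, Hspa5 with Calr stood at 0.144 in the control and 0.061 in the knockout.

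**Figure D5:**
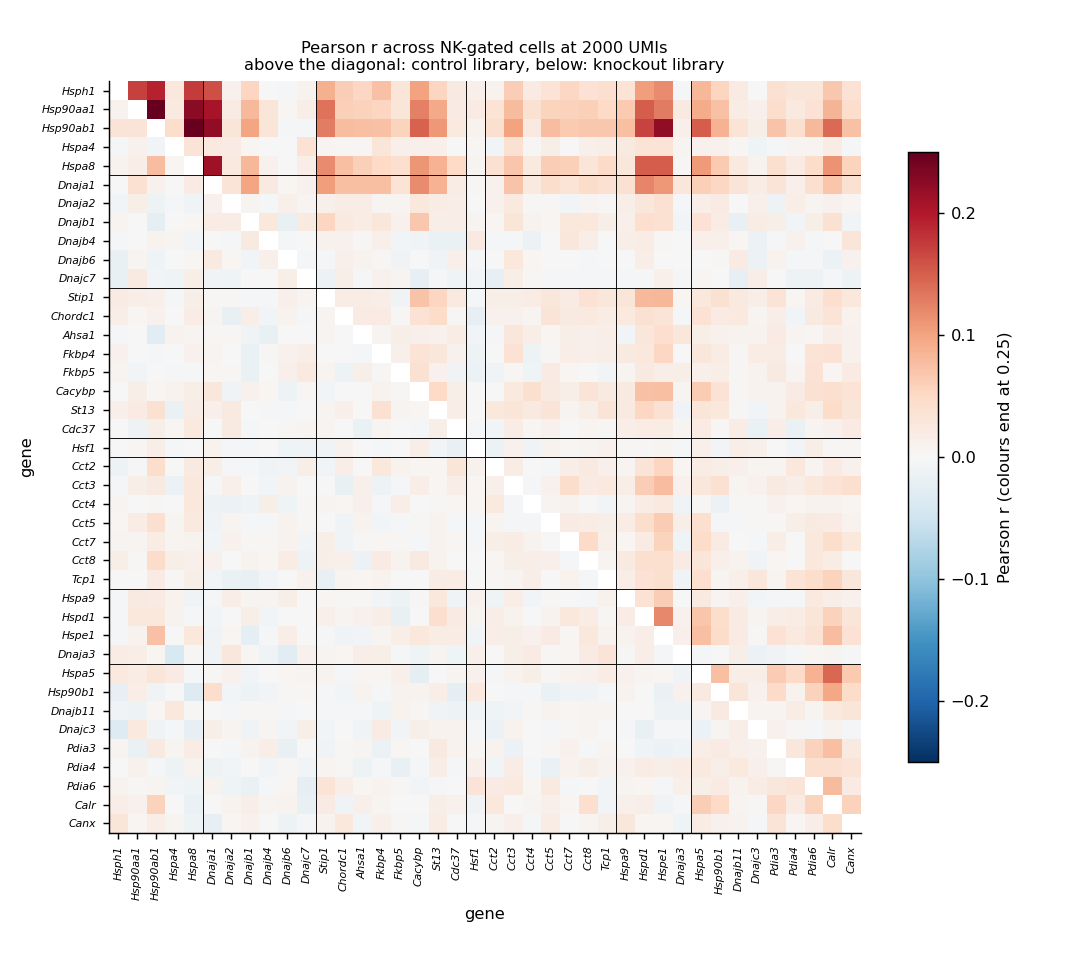
Pearson's r between single members across NK-gated cells thinned to 2000 UMIs, with control values above and knockout values below the diagonal and lines between the lists. The HSP90 genes, Hspa8, Dnaja1, Hspd1 and Hspe1 form the darkest block in the control (up to 0.281, where colours end at 0.25), and the same block below the diagonal is pale.

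A small set of control cells carried the inducible pair. At 2000 UMIs per cell, 178 of 10027 control NK cells (1.78%, exact binomial interval 1.53 to 2.05) and 18 of 8819 knockout cells (0.204%, 0.121 to 0.322) held a UMI of Hspa1a or Hspa1b, against 3.41% and 0.317% at full depth. In 17 control cells both were seen, and the highest count in a cell was 13. In macrophages, 0 of 34 control cells and 1 of 126 knockout cells held Hspa1a and none held Hspa1b, at median depths of 1175.5 and 1418.5 UMIs, where a control level up to 84.7 CPM would go unseen. Other types did carry Hspa1a in the control, with 1 UMI in 12 T cells and 3 UMIs in 1 of 14 dendritic cells. Of the 178 cells, 42, 57 and 68 came from the least, intermediate and most mature bin.

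Control cells that held the pair were set beside those that did not, on thinned counts and with the pair left out of the sums. Of the 40 measured members, 23 had an interval above 0, 17 one that includes 0 and 0 one below. The share of all measured genes with such intervals was not taken, so these counts have no background beside them. The intervals hold counting error of UMIs and no spread between cells. Hsph1 was at 368 CPM with and 130 CPM without a UMI of the pair (log2 1.5, 1.24 to 1.75). Hspe1 was at 596 against 244 CPM (1.29), Hsp90aa1 at 1360 against 557 CPM (1.29), Dnajb1 at 230 against 102 CPM (1.18), Stip1 at 264 against 121 CPM (1.13) and Hspd1 at 424 against 210 CPM (1.02). Summed by compartment the ratios were 1.12 (0.98 to 1.27) for mitochondrial, 0.87 (0.83 to 0.92) for cytosolic, 0.51 (0.41 to 0.61) for ER and 0.46 (0.33 to 0.58) for CCT members. Among the 17 were Dnajb4 (0.35), Hsp90b1 (0.19), Dnajb6 (0.08) and Cdc37 (-0.18). The sum of the immediate early genes was level (0.01, -0.08 to 0.09), with Jun higher (0.32, 0.09 to 0.55) and Fosb lower (-0.43, -0.81 to -0.06). In the knockout library 18 cells were too few for most genes. There Hspa8 was at 1083 against 660 CPM (0.71, 0.22 to 1.17), and the cytosolic sum had an interval of -0.01 to 0.52. The ER (-0.49, -1.07 to 0.03) and CCT sums (-0.45, -1.10 to 0.12) were below 0 with intervals that include it. The immediate early genes Fos (1.67, 0.80 to 2.42), Fosb (1.35, 0.14 to 2.33) and Junb (0.59, 0.12 to 1.02) were also higher in those knockout cells. They rest on 14, 8 and 43 UMIs. Ier2 (-0.50), Btg2 (-0.35) and Zfp36 (-2.10, 1 UMI) were below 0 with intervals that include it. The sum of the immediate early genes was at 0.26 (-0.02 to 0.53).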

How the data were processed

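Raw UMI counts per gene and barcode, 1 matrix per library, were used as deposited by the authors. The file headers name version 3.0.0. The submitters' processing notes list STAR, Cell Ranger 3.0.0, Seurat and GRCm39 without roles. Barcodes with under 500 genes or over 10% mitochondrial UMIs were left out (857 control, 592 knockout). Classes and NK states were gated on marker UMIs, with no doublet caller. Droplets meeting another class's markers were kept out of the NK class. Counts were summed per class and library and divided by total UMIs (CPM). Counts carry exact Poisson, shares exact binomial (Clopper-Pearson) and ratios exact conditional binomial intervals at 95%. UMI thinning was seeded. Exon lengths came from GENCODE vM21 (GRCm38), matched for 30934 genes. Every member is accounted for. Values are given in full for the up to 4 genes per list with the largest ratio in size and for its most abundant gene. Outside the list, up to 3 genes per direction, Ptger3, Ncr1, Cirbp, Rbm3, up to 4 immediate early genes and Gzma are named. State, cell type and pair values of single members were picked for display after they were seen. Members and lists were chosen with earlier results of these data known. Steps were tested on simulated data, using matplotlib 3.10.9, pandas 2.3.3, scipy 1.17.1, numpy 2.4.6 and Python 3.11.15.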

Additional observations from a re-analysis of the deposited data

Results flagged for a closer look

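In macrophages the ER chaperone Calr was higher in the knockout library (log2 ratio 0.88, 0.10 to 1.75), whereas in NK cells it was at -0.28. The summed ER members were at 0.41 (0.10 to 0.73) in macrophages and at -0.58 in NK cells. Opposite signs in the 2 classes drew attention to these values, and the difference was not tested because each class has 1 library per group.

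Barcodes left out by the filter on gene number and mitochondrial share also carried chaperone transcripts. Cytosolic members were at 4037 CPM in the control and 2594 CPM in the knockout library there (-0.64, -0.73 to -0.55). ER members were at 1210 against 1713 CPM (0.50, 0.37 to 0.63), opposite in sign to NK cells. These barcodes enter no comparison above, and the difference was not tested.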

How the results depend on the processing

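No paired analysis was possible because each genotype is 1 library. For the same reason no library could be left out. Across 12 alternatives of scaling, total, minimum level, cell filter, depth, length, gate, states and size, the count of higher NK members was 0. The count of lower members was 23 in 9 of them, with 24 after length adjustment, 26 at a minimum of 1 CPM and 18 at a size of 0.58. Of all measured genes 28.8% were lower and 19.5% higher at a minimum of 1 CPM, and 13.7% and 4.05% at a size of 0.58. After length adjustment no such share was taken. The median of -0.476 was -0.409 with median-of-ratios scaling, -0.575 at a minimum of 50 CPM, -0.575 at 1 CPM and -0.419 after length adjustment. With median-of-ratios scaling 25.0% of all measured genes were lower and 19.8% higher, and at 4000 to 6000 UMIs per cell 36.5% and 11.1%. In the 11 settings that keep the size of 0.32, all 23 lower members kept their sign and 19 stayed lower. The exceptions were Fkbp5, Cdc37 and Cct3 after length adjustment, and Cct3 (-0.319) and Hspe1 (-0.22) at 4000 to 6000 UMIs. With 0 UMIs of other lineages, the summed cytosolic ratio was -1.14. In other cell types the lower count ranged from 16 to 23, where the main setting gave 21 of 38 beside 37.4% of all genes. The share of all genes was not taken in the other settings, so this range has no background beside it. The most over least mature ratio in the control was 0.0632 with states gated on raw UMIs. Thinned to 1000 UMIs, r in the control was 0.229 for cytosolic with mitochondrial and 0.159 for cytosolic with ER members. The cause of these shifts was not tested, apart from the fewer or more genes that another minimum brings in.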
